A study of Rattus norvegicus with 10 samples.

Results

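Potassium channel subunits were examined in rat hearts of 24 and 6 months. They were taken as the probe sets whose only gene symbol in the platform annotation begins with Kcn or is Abcc8 or Abcc9. This gave 130 of 31042 probe sets, which measure 77 of 14217 named genes, and the value of a gene is the mean of its probe sets. The aged group held 5 arrays of 24-month-old hearts and the adult group 5 arrays of 6-month-old hearts. All came from male rats of the inbred strain Fischer-344, on standard chow and with no other treatment named in the labels. The sample protocols give the whole heart as the source and the series text gives ventricles, and a heart of either kind mixes myocytes with other cell types. Nothing in the labels says that each array holds a separate animal, so the p-values cover the spread among these 10 samples alone, and it may be technical.

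Potassium channels let potassium leave the cardiac myocyte and so end the action potential and hold the resting potential. Transient outward and delayed rectifier channels open with depolarization and repolarize the cell, inward rectifiers set the resting potential, and ATP-sensitive channels open when energy runs low. Each channel joins pore-forming alpha subunits with auxiliary subunits that set its gating and its delivery to the membrane. Rodent ventricles repolarize mainly through fast transient outward currents, so rapid and slow delayed rectifier subunits play a smaller part there than in larger mammals.

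All values are on the log2 scale relative to the median of each probe set over the 10 arrays, so arrays can be compared for a gene but its absolute level cannot be read. The log base was inferred from the values. A gene is said to have risen or fallen where its adjusted p (Benjamini-Hochberg, limma, over all 14217 genes) was under 0.05. Array medians lay between -0.0097 and 0.0038 in the aged group and between -0.0061 and 0.0093 in the adult group. A trace of brightness left in the numerical step of the values sorted probe sets into 3 approximate classes. All 7 measured ventricular and general myocyte markers had a probe set in the brightest, as did 8 of the 77 channel genes and 19.4% of all genes. Of the other marker lists, 6 of 7 fibroblast, 2 of 6 endothelial and 1 of 4 adipocyte markers were in that class. None of the 4 measured atrial markers was, nor any smooth muscle, pericyte, macrophage, lymphocyte or neuron and Schwann cell marker.

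Of the 77 channel genes, 9 changed with age (11.7%), against 11.9% of all genes. In the aged hearts 3 rose (3.90%, against 6.77% of all genes) and 6 fell (7.79%, against 5.09% of all genes). The risen genes were Kcne1, Kcns3 and Kcne4, and the fallen genes were Kcnk2, Kcnj12, Kcnh2, Kcna2, Kcnj11 and Kcng2. The share that changed was near that of the array as a whole. A lower mean in aged hearts was found for 52 of the 77 (67.5%), against 51.8% of all genes, with a median difference of -0.043 against -0.0050 over all genes. Most differences were small, with 61 genes under 0.15 in size, and the median half-width of the 95% interval was 0.14. The ages did not overlap in 9 channel genes (11.7%), against 9.91% of all genes. Of these, 7 lay lower (9.09%, against 4.78% of all genes) and 2 higher (2.60%, against 5.13%) in aged hearts. At an unadjusted p under 0.05 there were 16 channel genes (20.8%), against 26.3% of all genes. At an adjusted p under 0.01, which 3.95% of all genes passed, there were 4: Kcns3, Kcne1, Kcnk2 and Kcnh2.

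**Figure D1:**
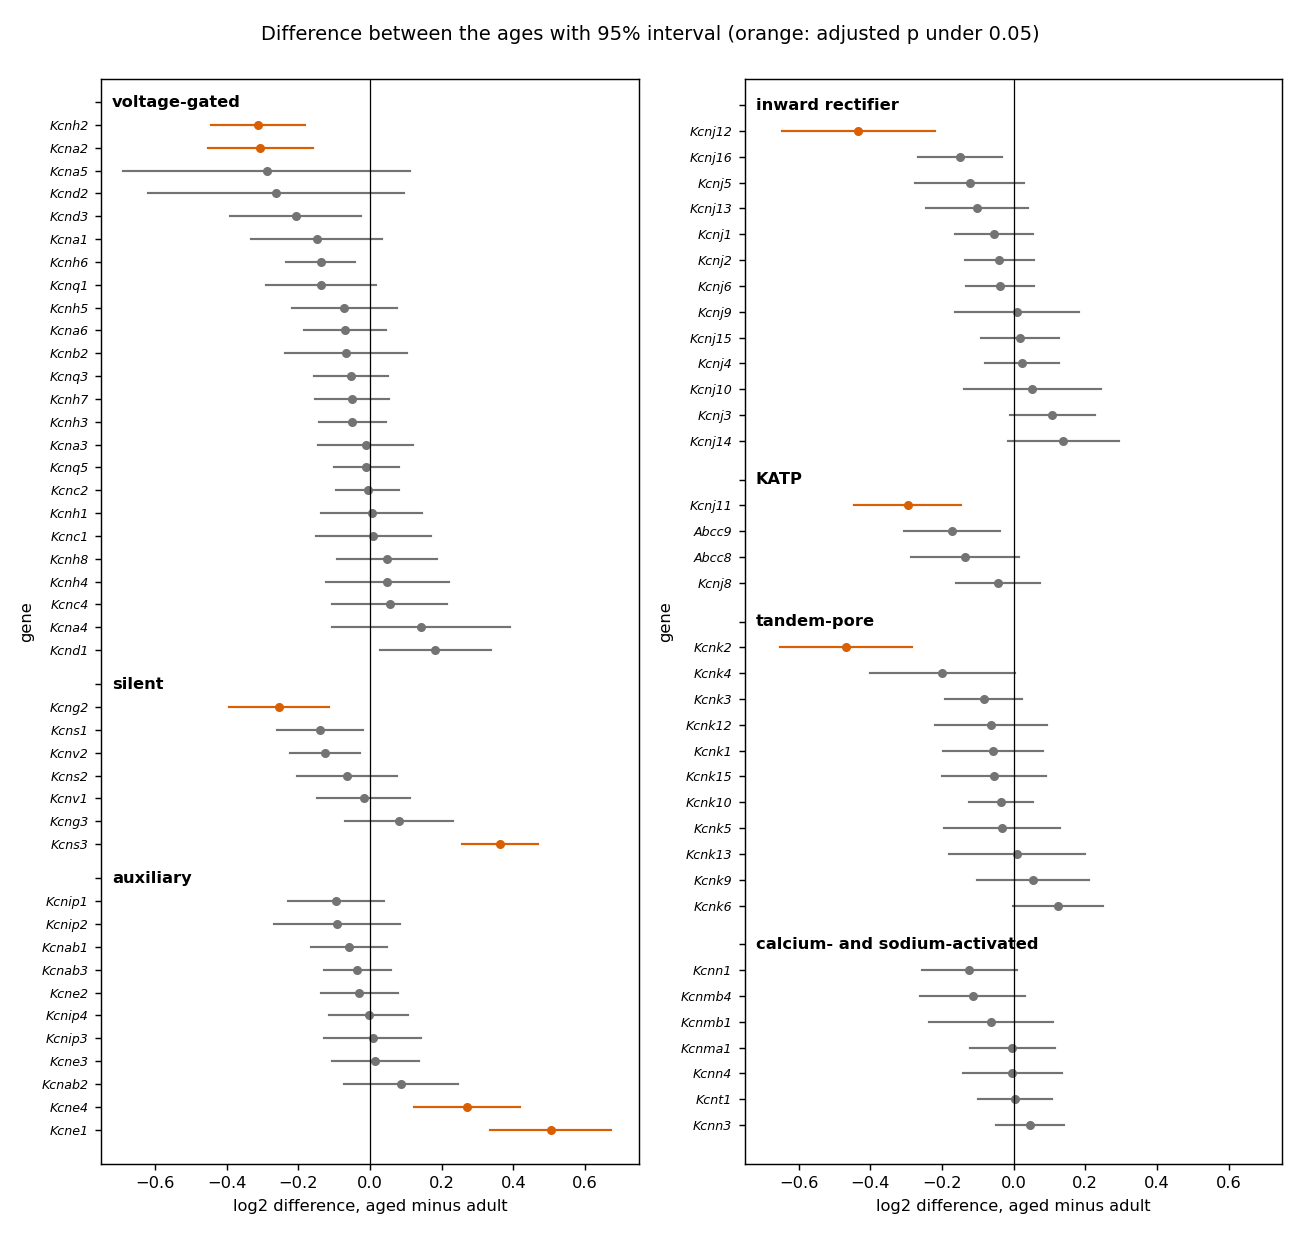
Log2 difference, aged minus adult, of each of the 77 potassium channel genes (points) with its 95% interval from limma (lines), grouped by channel family, for 5 arrays per age. Orange marks the 9 genes with an adjusted p under 0.05, of which 3 lie right of 0 and 6 left of it.

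The 3 promoters of the genes that rose are shown because these were the only members whose RNA was higher in aged hearts by this test. Each run is 300 bases from RefSeq on build GRCr8, from 250 bases before to 50 after the annotated start, read 5′ to 3′ on the strand of the gene. Capitals mark matches on either strand to any of 6 motifs searched, which did not overlap here. Kcne1 lies on the minus strand (chr11:45076984-45077283), Kcns3 on the minus strand (chr6:39584056-39584355) and Kcne4 on the plus strand (chr9:87695798-87696097).
Kcne1: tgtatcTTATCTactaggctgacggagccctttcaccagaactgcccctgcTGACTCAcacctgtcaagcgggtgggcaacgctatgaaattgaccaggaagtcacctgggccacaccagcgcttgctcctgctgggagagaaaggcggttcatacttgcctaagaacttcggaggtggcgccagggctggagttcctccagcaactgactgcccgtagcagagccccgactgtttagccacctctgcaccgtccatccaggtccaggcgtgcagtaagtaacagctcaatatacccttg
Kcns3: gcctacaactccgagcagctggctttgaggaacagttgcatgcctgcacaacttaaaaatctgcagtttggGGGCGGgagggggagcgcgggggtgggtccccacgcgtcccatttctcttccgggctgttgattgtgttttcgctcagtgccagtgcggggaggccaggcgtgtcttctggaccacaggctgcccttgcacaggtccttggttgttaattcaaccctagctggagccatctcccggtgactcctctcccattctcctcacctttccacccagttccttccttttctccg
Kcne4: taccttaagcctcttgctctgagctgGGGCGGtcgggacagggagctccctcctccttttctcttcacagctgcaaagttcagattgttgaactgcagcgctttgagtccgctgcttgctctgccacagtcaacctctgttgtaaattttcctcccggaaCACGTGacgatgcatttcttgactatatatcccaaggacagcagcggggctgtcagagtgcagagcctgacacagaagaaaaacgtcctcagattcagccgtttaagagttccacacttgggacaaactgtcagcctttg
In the Kcne1 window the capitals are a GATA match (AGATAA on the other strand) and an AP-1 match (TGANTCA). The Kcns3 window held a GC box (GGGCGG), and the Kcne4 window held a GC box and an E-box (CACGTG). Among 53 channel genes matched by gene identifier to a promoter, 31 held a GC box (58.5%), against 34.9% of 27457 promoters. The 27457 were the promoters of all genes in the reference and not of the array's genes alone. The shares given here thus compare unlike sets of genes and were not tested. GATA matches were in 13.2% of the channel promoters and 11.3% of all, AP-1 matches in 5.66% and 7.33%, and E-boxes in 5.66% and 6.65%. The ERR motif AAGGTCA was in 7.55% of channel promoters and 4.37% of all, and the MEF2 motif in 1.89% and 3.83%. Neither was found in the windows of the 6 changed genes that had one. No motif was found in all 3 windows printed, and a match is a run of letters, not a bound site.

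The channels best known from heart were 9 genes, of which 1 rose, 2 fell and 6 did not pass the test. Over all genes 11.9% changed. All but Kcne1 had lower means in aged hearts, as did 51.8% of all genes, and these 9 genes were named for their known part in the heart and not drawn at random.

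Of the slow delayed rectifier, the auxiliary subunit gene Kcne1 rose and the pore gene Kcnq1 did not pass. Kcne1 encodes a small membrane protein that slows the opening of the Kcnq1 channel. Its values were 0.21, 0.073, 0.47, 0.48 and 0.40 in aged replicates 2, 3, 4, 5 and 6, against -0.21, -0.073, -0.22, -0.20 and -0.17 in adult replicates 1, 2, 3, 4 and 6. Every aged array lay above every adult array, with aged replicate 3 closest to the adult group. The difference was 0.50 ± 0.08 SE, or 41.8% higher in aged hearts (95% interval 0.34 to 0.67, adjusted p = 0.00267, limma, n = 5 per age). It was the largest rise among the channel genes and rests on 1 probe set. Kcnq1 read -0.044, -0.28, -0.020, -0.049 and 0.025 in aged hearts, against -0.12, 0.020, 0.13, 0.16 and 0.12 in adult hearts. The groups overlapped, with a difference of -0.14 ± 0.07 SE (95% interval -0.29 to 0.017, adjusted p = 0.248). Without aged replicate 3 it was -0.084 (adjusted p = 0.415).

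The centred value of Kcne1 minus that of Kcnq1 on the same array did not overlap between the ages. It lay between 0.26 and 0.53 in aged hearts and between -0.37 and -0.083 in adult hearts, a difference of 0.64. Since each gene is centred on its own median, its sign does not say which gene had more RNA. By a two-sided exact permutation test this gave p = 0.00794, the smallest that 5 against 5 arrays allow, and adjusted p = 0.0476 over 6 pairs of subunits. Most of the pair difference was the rise of Kcne1 (0.50), whose ages were already apart alone, so it is not a separate result. Without aged replicates 3 and 6 the difference was 0.66, and the 8 arrays left allow no p below 0.0179 (adjusted p = 0.107).

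Of 4 measured markers of atrial myocytes, 1 rose, where 6.77% of all genes rose. This was the atrial myosin light chain gene Myl7 (1.45 ± 0.37 SE, adjusted p = 0.0261). The other 3, Myl4, Sln and Nr2f2, had higher means in aged hearts that did not pass (0.26, 0.16 and 0.086, adjusted p = 0.151, 0.507 and 0.248). The mean of the 4 markers per array lay between 0.028 and 0.34 in aged hearts and between -0.49 and 0.042 in adult hearts, so the ages overlapped. Aged replicates 4, 5 and 6, the arrays with the highest Kcne1 values, had atrial marker means of 0.34, 0.29 and 0.34, and aged replicates 2 and 3 had 0.12 and 0.028. In adult hearts the order differed. Adult replicate 2, with the highest adult Kcne1 value of -0.073, had an atrial marker mean of -0.43, and adult replicate 6, with the highest adult atrial mean of 0.042, had a Kcne1 value of -0.17. In aged replicates 4, 5 and 6 Myl7 read 0.85, 0.95 and 0.94, Myl4 -0.14, 0.32 and 0.33, and Sln 0.64, -0.15 and 0.00056. Nr2f2 read 0.026, 0.053 and 0.075 there, so the atrial marker means of these arrays rest mostly on Myl7. The part of atrial tissue in the Kcne1 difference was not tested.

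Of the rapid delayed rectifier, the pore gene Kcnh2 fell. Kcnh2 encodes the ERG channel, whose block or loss prolongs repolarization in human hearts. Its values were -0.30, -0.053, -0.14, -0.31 and -0.11 in aged hearts, against 0.053, 0.12, 0.10, 0.20 and 0.20 in adult hearts. Every aged array lay below every adult array. The difference was -0.31 ± 0.06 SE, or -19.5% (95% interval -0.44 to -0.18, adjusted p = 0.00677). The related ERG gene Kcnh6 gave -0.14 ± 0.04 SE (adjusted p = 0.0642), and without adult replicate 6 it was -0.16 (adjusted p = 0.0413).

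The transient outward current is carried in rodent heart by Kv4 channels, with pores from Kcnd2 and Kcnd3 and the calcium-binding auxiliary subunit from Kcnip2. All 3 genes had lower means in aged hearts and none passed the test. Kcnd2 read -0.012, -0.81, 0.29, -0.15 and -0.084 in aged hearts, against -0.17, 0.26, 0.23, -0.0047 and 0.22 in adult hearts. Aged replicate 3 was the lowest and aged replicate 4 the highest of all 10 arrays, so the aged values spanned the adult ones. The difference was -0.26 ± 0.16 SE (95% interval -0.62 to 0.095, adjusted p = 0.351), and -0.098 without aged replicate 3 (adjusted p = 0.601). Kcnd3 lay between -0.26 and 0.045 in aged hearts and between -0.065 and 0.30 in adult hearts, a difference of -0.21 ± 0.08 SE (adjusted p = 0.136). Of its 3 probe sets, 1 gave -0.40 (adjusted p = 0.0360 over probe sets), and the other two gave -0.081 and -0.14 and did not pass. Kcnip2 lay between -0.37 and 0.12 in aged hearts and between -0.031 and 0.091 in adult hearts (-0.093 ± 0.081 SE, adjusted p = 0.521). Its difference without aged replicate 3 was -0.016 (adjusted p = 0.885). The 95% intervals of Kcnd2 and Kcnip2 included 0 and that of Kcnd3 did not (-0.39 to -0.025), although its adjusted p missed the threshold.

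Differences within the Kv4 complex were not detected. Kcnd3 minus Kcnd2 differed between the ages by 0.055 (exact permutation adjusted p = 0.810), and by -0.097 without aged replicate 3 (adjusted p = 0.514). Kcnip2 minus Kcnd2 differed by 0.17 (adjusted p = 0.333), by 0.082 without aged replicate 3 (adjusted p = 0.540) and by 0.015 without aged replicates 3 and 6 (adjusted p = 0.857). The third Kv4 pore gene, Kcnd1, had a higher mean in aged hearts that did not pass (0.18 ± 0.07 SE, adjusted p = 0.123). Kcna4, which carries the slow transient outward current, read 0.36 and 0.42 in aged replicates 2 and 3 and -0.24 in aged replicate 6, against -0.20 to 0.056 in adult hearts (0.14 ± 0.11 SE, adjusted p = 0.488). Its difference was 0.075 without aged replicate 2, 0.060 without aged replicate 3 and 0.23 without aged replicate 6 (adjusted p = 0.725, 0.751 and 0.207). The membrane proteins that accompany Kv4, from Dpp6 and Dpp10, gave -0.0082 and 0.046 (adjusted p = 0.950 and 0.690).

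Kcna5, which encodes the pore of an ultrarapid delayed rectifier, varied widely in both groups. It read 0.12, -0.39, -0.20, 0.22 and -0.25 in aged hearts, against -0.12, -0.26, 0.21, 0.25 and 0.85 in adult hearts. The high value was that of adult replicate 6. The difference was -0.29 ± 0.18 SE (95% interval -0.69 to 0.11, adjusted p = 0.360), and -0.12 without adult replicate 6 (adjusted p = 0.651).

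**Figure D2:**
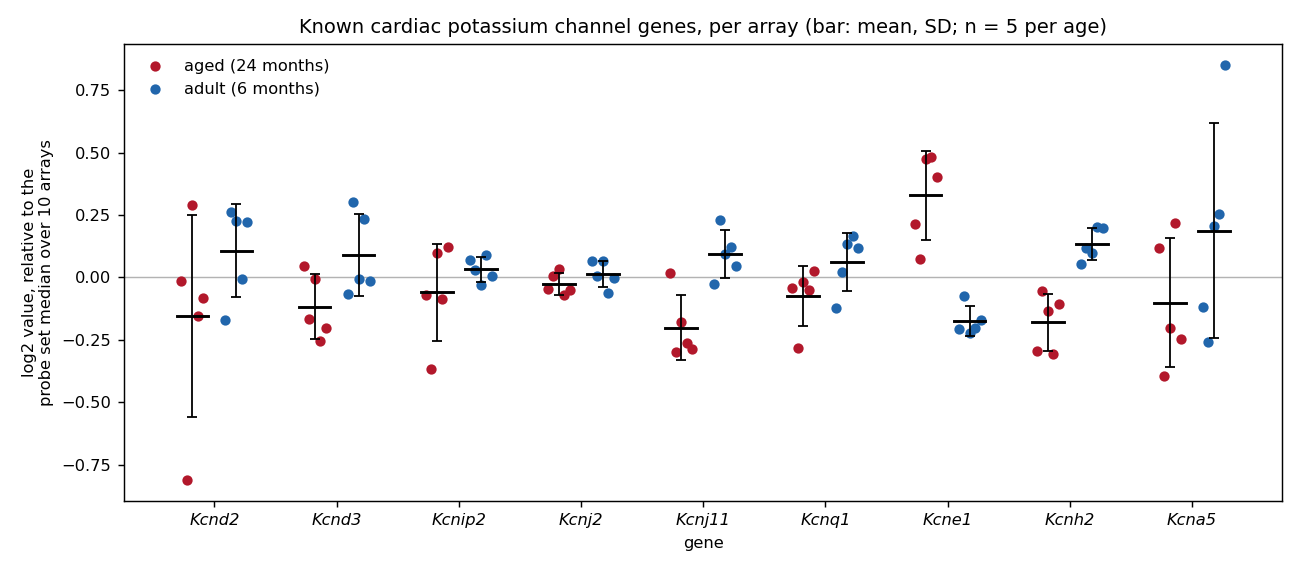
Log2 values per array, relative to the probe set median over the 10 arrays, of the 9 known cardiac potassium channel genes, with 5 aged arrays (red, left) and 5 adult arrays (blue, right) for each gene. Black lines are means with SD. The ages are apart for Kcne1 and Kcnh2 and overlap for the other 7.

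The inward rectifier current rests on Kir2 channels, and of its genes Kcnj12 fell while Kcnj2 did not pass. Kcnj2 encodes Kir2.1, the main subunit in rodent ventricle. It read -0.046, 0.0060, 0.032, -0.068 and -0.052 in aged hearts, against 0.067, 0.0040, 0.064, -0.063 and -0.0040 in adult hearts. The difference was -0.039 ± 0.044 SE, and its 95% interval of -0.14 to 0.057 was narrow (adjusted p = 0.630). Without adult replicate 1 it was -0.026 (adjusted p = 0.787). Kcnj12, which encodes Kir2.2, read -0.082, -0.015, -0.033, -0.21 and -0.40 in aged hearts, against 0.015, 0.46, 0.48, 0.17 and 0.30 in adult hearts. All aged values were below all adult values, with adult replicate 1 nearest the aged group. It fell by 0.43 ± 0.10 SE, or -25.9% (95% interval -0.65 to -0.22, adjusted p = 0.0151). The difference between Kcnj12 and Kcnj2 was not tested.

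The 12 inward rectifier genes other than Kcnj12, Kcnj2 among them and the ATP-sensitive group apart, lay between -0.15 and 0.14 and none passed. Over all genes 11.9% changed. The lowest was Kcnj16 (-0.15 ± 0.05 SE, adjusted p = 0.0913), which passed with array weights (adjusted p = 0.0479), and the highest was Kcnj14 (0.14 ± 0.07 SE, adjusted p = 0.239). The acetylcholine-activated channel, most abundant in atria, is built from Kcnj3 and Kcnj5. Kcnj3 gave 0.11 ± 0.05 SE (adjusted p = 0.232) and Kcnj5 -0.12 ± 0.07 SE (adjusted p = 0.301), or -0.068 without adult replicate 2 (adjusted p = 0.567). Their within-array difference was higher by 0.23 in aged hearts (exact permutation adjusted p = 0.143).

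Of the ATP-sensitive channel, which couples myocyte metabolism to membrane potential, the pore gene Kcnj11 fell and the other 3 genes had lower means that did not pass. Over all genes 5.09% fell and 51.8% had a lower mean. Kcnj11, which encodes Kir6.2, the pore of the ventricular channel, read 0.016, -0.30, -0.18, -0.26 and -0.29 in aged hearts, against -0.027, 0.23, 0.092, 0.12 and 0.048 in adult hearts. The groups overlapped through aged replicate 2 and adult replicate 1. The difference was -0.29 ± 0.07 SE, or -18.5% (95% interval -0.44 to -0.15, adjusted p = 0.0170). Of its 3 probe sets, those at -0.44 and -0.37 passed by themselves and that at -0.070 did not. Without aged replicates 3 and 6 together, the arrays with the highest lymphocyte marker means, the difference was -0.23 (adjusted p = 0.0919). Those means rest mostly on Nkg7 (1.87 and 1.78 in aged replicates 3 and 6), Cd8a (0.85 and 0.75) and Gzma. The lymphocyte markers Cd3e (-0.22 and -0.027), Cd3d (-0.072 and -0.25) and Cd79b (-0.071 and -0.089) were negative in both arrays. Cd3g (-0.46 and 0.24) and Cd2 (0.29 and -0.0091) differed in sign between them.

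The sulfonylurea receptor gene Abcc9, whose product SUR2 joins Kir6.2 in ventricular myocytes, read -0.0049, -0.023, -0.040, -0.16 and -0.073 in aged hearts, against 0.044, 0.12, 0.036, 0.32 and 0.042 in adult hearts. The ages did not overlap, but the difference did not pass (-0.17 ± 0.06 SE, adjusted p = 0.0901). All 3 of its probe sets were lower, between -0.23 and -0.13. Abcc8, which encodes SUR1, gave -0.14 ± 0.07 SE (adjusted p = 0.241). Kcnj8, the Kir6.1 pore gene of vascular smooth muscle and pericytes, gave -0.043 ± 0.054 SE (adjusted p = 0.671), between -0.070 and -0.0095 with 1 array left out, the smallest without adult replicate 1. Kcnj8 minus Kcnj11 was higher by 0.25 in aged hearts (exact permutation p = 0.0556, adjusted p = 0.143). That difference was 0.31 without aged replicate 2 (adjusted p = 0.0476). Abcc9 minus Kcnj11 was higher by 0.12 (adjusted p = 0.202).

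Markers of ventricular and general myocytes were lower over the same aged arrays. Their mean per array lay between -0.17 and 0.033 in aged hearts and between 0.011 and 0.20 in adult hearts. Of the 7 markers 2 fell, Ryr2 (-0.55) and Atp2a2 (-0.34), where 5.09% of all genes fell. In bulk tissue, fewer myocytes and less RNA per myocyte cannot be told apart. Their part in the falls of Kcnj11, Kcnj12 and Kcnh2 was not tested.

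Of the tandem-pore leak channels, 1 of 11 genes changed, a share near the 11.9% of all genes. Kcnk2, which encodes the stretch-sensitive leak channel TREK-1, read -0.21, -0.30, -0.038, -0.26 and -0.52 in aged hearts, against 0.22, 0.38, 0.21, 0.038 and 0.17 in adult hearts. Every aged value lay below every adult value. It had the largest fall of the 77 genes, -0.47 ± 0.08 SE or -27.7% (95% interval -0.65 to -0.28, adjusted p = 0.00529). Its probe sets differed in size, with -0.75 (adjusted p = 0.00341 over probe sets) for 1 and -0.19 (adjusted p = 0.0704) for the other. The other 10 genes lay between -0.20 and 0.12. They included Kcnk4, which encodes the related channel TRAAK (-0.20 ± 0.09 SE, adjusted p = 0.197), and Kcnk6 (0.12 ± 0.06 SE, adjusted p = 0.193). The Kcnk4 difference was -0.12 without aged replicate 6 (adjusted p = 0.390).

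Silent alpha subunits, which form no channel alone and modify Kv2 pores, moved in both directions. Of 7 genes 1 rose and 1 fell, where 6.77% of all genes rose and 5.09% fell. Kcns3 rose with the smallest p of all 77 genes. It read 0.16, 0.12, 0.15, 0.22 and 0.11 in aged hearts, against -0.20, -0.31, -0.16, -0.11 and -0.26 in adult hearts, so the ages did not overlap. The difference was 0.36 ± 0.05 SE, or 28.6% (95% interval 0.26 to 0.47, adjusted p = 0.00156). Kcng2 read -0.057, -0.054, -0.14, -0.19 and -0.18 in aged hearts, against 0.15, 0.27, 0.24, 0.045 and -0.043 in adult hearts. It fell by 0.25 ± 0.06 SE, or -16.2% (adjusted p = 0.0237). Of its 3 probe sets, 2 passed alone (-0.34 and -0.39) and the one in the dimmest class did not (-0.034). The call of Kcng2 was lost without aged replicate 5 or 6 or adult replicate 2 or 3 (adjusted p between 0.0585 and 0.0652), and with the median of its probe sets (-0.20, adjusted p = 0.0563). Kcnv2 and Kcns1 had lower means that did not pass (-0.13 and -0.14, adjusted p = 0.0940 and 0.122), although every aged value of Kcnv2 was below every adult one.

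Among auxiliary subunits, Kcne1 and Kcne4 rose and the other 9 genes did not pass, lying between -0.094 and 0.086. That is 2 of 11 genes risen and 0 fallen, where 6.77% of all genes rose and 5.09% fell. Kcne4, which encodes an inhibitory partner of the Kcnq1 channel, read -0.053, 0.25, 0.18, 0.22 and 0.18 in aged hearts, against -0.20, -0.12, -0.094, -0.21 and 0.053 in adult hearts. Aged replicate 2 was low and adult replicate 6 high, so the groups overlapped. The difference was 0.27 ± 0.07 SE, or 20.6% (95% interval 0.12 to 0.42, adjusted p = 0.0241). It was lost without aged replicate 5 or 6 or adult replicate 1, 2, 3 or 4 (adjusted p between 0.0517 and 0.0649). The 3 Kcnab genes, the remaining Kcnip genes and the remaining Kcne genes were among those that did not pass.

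The remaining voltage-gated alpha subunits held 1 more gene that changed. Kcna2, which encodes Kv1.2, known from axons and also present in rat myocytes, read -0.038, -0.41, -0.20, -0.35 and -0.16 in aged hearts, against -0.0036, 0.13, 0.10, 0.10 and 0.055 in adult hearts. The groups were apart, with aged replicate 2 next to adult replicate 1. It fell by 0.31 ± 0.07 SE, or -19.1% (adjusted p = 0.0131). This mean joins 2 probe sets that disagreed, at -0.63 (adjusted p = 0.0251 over probe sets) and at 0.017 (adjusted p = 0.929). The ages overlapped on each of the 2 by itself. On the first, aged replicate 2 read 0.11, above adult replicate 1 at -0.017. On the second, aged replicate 2 read -0.18. Of 7 markers of neurons and Schwann cells 0 passed, where 11.9% of all genes changed. The means of these markers spanned -0.092 to 0.10 in aged hearts and -0.061 to 0.15 in adult hearts. Kcna1, a close relative, gave -0.15 ± 0.08 SE (adjusted p = 0.293). In all, 2 of 24 voltage-gated alpha genes fell and 0 rose, where 5.09% of all genes fell and 6.77% rose, and the 22 others lay between -0.29 and 0.18.

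Channels activated by calcium or sodium ions held 0 of 7 genes that passed limma's adjusted threshold and 0 at an unadjusted p under 0.05. Over all genes 11.9% passed the first and 26.3% the second, and 7 genes are too few to set this family apart. The differences of these 7 lay between -0.12 and 0.045. They include the large-conductance channel gene Kcnma1 and its beta subunit genes, which smooth muscle expresses. Smooth muscle markers gave 1 fall among 6 (Smtn, -0.26), where 5.09% of all genes fell.

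**Figure D3:**
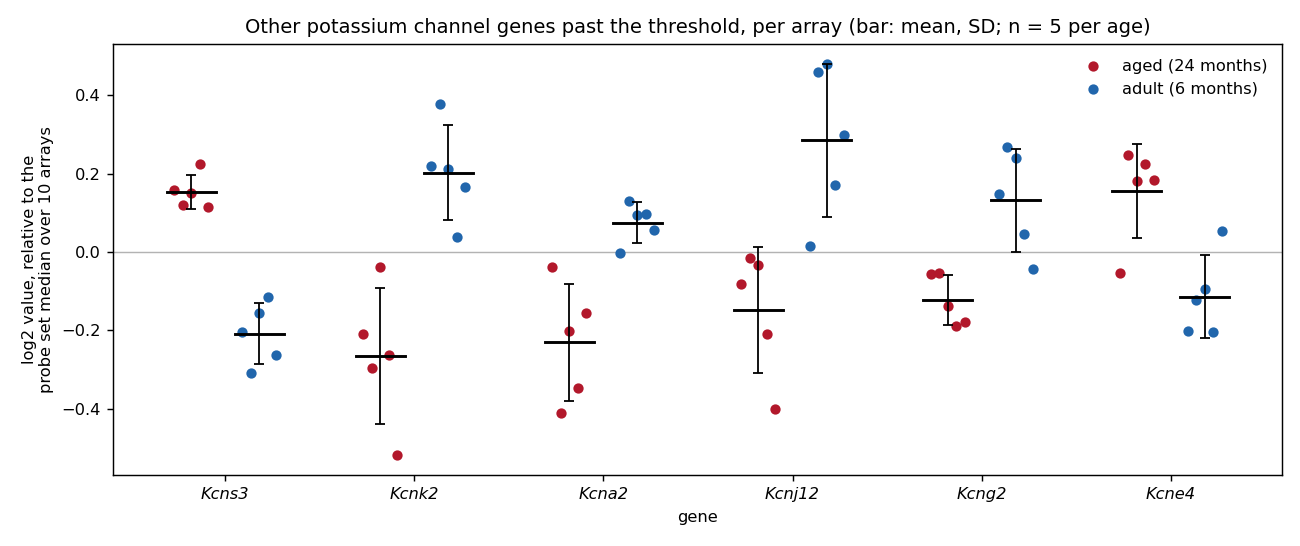
Log2 values per array, relative to the probe set median over the 10 arrays, of the 6 further potassium channel genes with an adjusted p under 0.05, with 5 aged arrays (red, left) and 5 adult arrays (blue, right). Black lines are means with SD. The ages overlap for Kcne4 alone of these 6.

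Of the 32 channel genes with several probe sets, 12 had probe sets of both signs. Taken singly, 12 channel probe sets in 10 genes passed over all 31042 probe sets, 3 higher and 9 lower in aged hearts (background 8.03% of probe sets). The gene added by this view was Kcnd3. For 4 of the 9 changed genes several probe sets were averaged, and the spread between them was 0.35 to 0.65, against a median of 0.10 over all 32. The other 5, which include all 3 risen genes, rest on 1 probe set each.

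**Figure D4:**
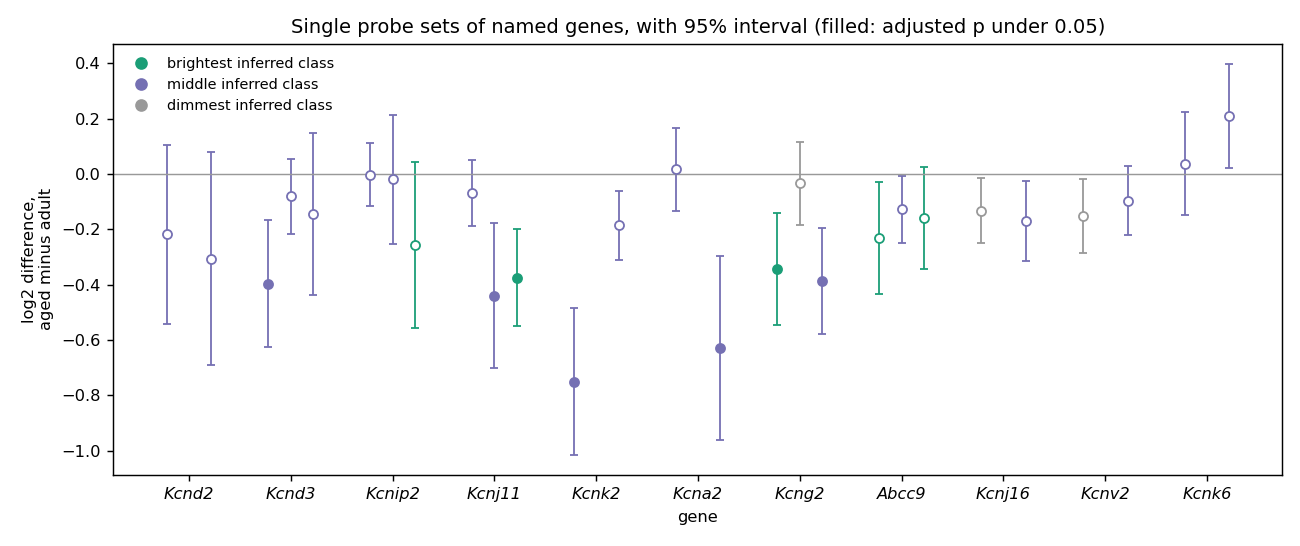
Log2 difference, aged minus adult, of single probe sets (points, with 95% interval from limma) for named channel genes that have more than 1, coloured by inferred brightness class and filled where the adjusted p over all probe sets was under 0.05. The 2 probe sets of Kcna2 lie at -0.63 and 0.017 and those of Kcnk2 at -0.75 and -0.19.

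Aged replicate 3 was the lowest of the 10 arrays for 5 of the 9 cardiac genes, Kcnd2, Kcnip2, Kcnj11, Kcnq1 and Kcna5. Aged replicate 5 was the lowest for Kcnd3, Kcnj2 and Kcnh2. Over all 77 genes, aged replicate 3 was the lowest array for 10 and the highest for 17. Aged replicate 6 was the lowest for 18, the most of any array, adult replicate 4 the lowest for 14, and adult replicate 2 the highest for 17. Values over all probe sets spread most in aged replicates 3 and 6 (SD 0.20 and 0.21, against 0.12 to 0.18 in the other arrays). Without aged replicates 3 and 6 together, 6 channel genes were called, 2 risen and 4 fallen, the calls of Kcnj11, Kcng2 and Kcne4 being lost.

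Genes that work with these channels without bearing their names were read from the same fit. Of 32 measured, 2 rose and 4 fell, against 11.9% of all genes changed. Among anchors, the caveolin gene Cav3 (-0.35 ± 0.06 SE, adjusted p = 0.00508) and the alpha-actinin gene Actn2 (-0.46 ± 0.09 SE, adjusted p = 0.00747) fell, and the LIM domain protein gene Fhl2 fell as well (-0.46 ± 0.05 SE, adjusted p = 0.000999). For each of these 3 all aged values were below all adult values. Among regulators of transcription, Hopx rose (0.72 ± 0.11 SE, adjusted p = 0.00292), while Irx3, Irx5, Etv1, Tbx5, Mef2c, Gata4 and Ppara did not pass, with differences between -0.29 and 0.20. Of signalling genes, Gng2 of the G protein gamma subunits rose (0.24, adjusted p = 0.0435) and the protein kinase C epsilon gene Prkce fell (-0.22, adjusted p = 0.0396). The call of Gng2 was lost without any 1 adult array or without aged replicate 3, 4, 5 or 6 (adjusted p between 0.0580 and 0.0927), and its difference was 0.46 without the dimmest probe sets. That of Prkce was lost without any 1 adult array or without aged replicate 4, 5 or 6 (0.0561 to 0.0934).

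Markers of some non-myocyte cells were higher in aged hearts. Higher means were found for all 7 macrophage, all 7 fibroblast, 5 of 8 lymphocyte, 4 of 5 pericyte and 3 of 6 endothelial markers. Lower means were found for 4 of 6 smooth muscle, 4 of 7 neuron and Schwann cell and 3 of 4 adipocyte markers. Over all genes 6.77% rose, and 1 gene in a short list is too few to set the list apart from that share. Macrophage markers rose in 3 of 7, with means of 0.038 to 1.10 in aged hearts and -0.52 to -0.024 in adult hearts. Fibroblast markers rose in 3 of 7 (-0.11 to 0.41 in aged and -0.24 to 0.054 in adult hearts), endothelial markers in 2 of 6 (-0.0082 to 0.28 and -0.13 to 0.015) and lymphocyte markers in 1 of 8 (0.059 to 0.70 and -0.27 to 0.0093). Pericyte markers rose in 1 of 5 (-0.034 to 0.077 in aged and -0.097 to 0.018 in adult hearts). Smooth muscle means were -0.15 to 0.084 in aged hearts and -0.15 to 0.21 in adult hearts. Adipocyte markers had 0 of 4 passed, with means of -0.0083 to 0.14 in aged hearts and -0.15 to 1.52 in adult hearts, the highest in adult replicate 2. The part of these cells in the channel differences was not tested.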

How the data were processed

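RNA of heart tissue was measured on 10 Affymetrix rat genome arrays after amplification and biotin labelling, per the labels' protocols. The deposited table holds log2 values of 31042 probe sets with the median of each probe set at 0 (within 1e-06). The log base was inferred from the numerical step, and neither the software nor the normalization is given in the sources used here. Of the probe sets, 20826 had 1 gene symbol in the platform annotation, 436 several and 9780 none listed, and those with several were named for none. Symbols updated through the RefSeq table of GRCr8 (20758 probe sets matched) gave the same 77 members. Ages were compared with limma 3.58.1 in R 4.3.3 (lmFit, eBayes) over all genes, and pairs of subunits by an exact permutation test. The fit was tested on simulated data. Brightness classes are approximate: 4925 probe sets dimmest, 22574 middle, 3543 brightest.

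The genes named were the 9 cardiac channels, other members with adjusted p under 0.05, the next 8 by p, the next 4 by size, members of the 6 pairs, and partner genes with adjusted p under 0.05. The members and lists were chosen with earlier results of these data known. The number of arrays limits the precision, and no signal over background was used here. Alternatives were leaving out arrays, a replicate block, quantile normalization, median centring, array weights, robust eBayes, the median of probe sets, removal of the dimmest class, updated symbols, single probe sets and a stricter threshold. Leaving out aged replicates 3 and 6 together was chosen after seeing the data. Plots used Python 3.11.15, pandas 2.3.3 and matplotlib 3.10.9.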

Additional observations from a re-analysis of the deposited data

Results flagged for a closer look

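Single arrays stood far from the other 4 of their group in 5 of the 72 sets of values checked, where chance gives about 1 in 20. Kcnq1 read -0.28 in aged replicate 3, with the nearest other aged value at -0.049. Kcne4 read -0.053 in aged replicate 2, below the next aged value of 0.18. Abcc9 read 0.32 in adult replicate 4, above the next adult value of 0.12, and without that array its difference was -0.12 (adjusted p = 0.145). Kcnv2 read -0.13 in aged replicate 3, below the next aged value of -0.022. Gng2 read -0.17 in adult replicate 4, below the next adult value of -0.039.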

How the results depend on the processing

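The count of 9 channel genes called (3 higher, 6 lower in aged hearts) lay between 7 and 10 when 1 array was left out, with 2 to 3 higher and 5 to 7 lower, and the count of partner genes, 6, lay between 4 and 8. With the replicate number as a block, 7 channel genes (2 higher, 5 lower) and 4 partner genes passed, the calls of Kcng2 (-0.23, adjusted p = 0.0653), Kcne4 (0.23, adjusted p = 0.109), Gng2 and Prkce being lost. Adult replicate 1 and aged replicate 5 have no array of the same number. The block fit therefore compared the ages over the 4 shared numbers alone, and its calls rest on fewer arrays than the main fit. Deviations from the group means correlated by 0.035 to 0.15 over the 4 shared numbers. The adult array closest to an aged one bore the same number for number 4 alone. These correlations were not tested, so whether the numbers pair the samples was not settled. Over all genes the block gave 1069 calls, against 1686, leaving out aged replicates 3 and 6 gave 1012, array weights gave 2239, and leaving out adult replicate 3 gave 988, the fewest with 1 array left out. At an adjusted p under 0.01, 4 channel genes passed, 2 higher and 2 lower. Of the pairs, 1 passed on all arrays, 1 to 2 with 1 array left out, and 0 without aged replicates 3 and 6 by the exact permutation test (1 at an unadjusted p under 0.05). Kcnd3 minus Kcnd2 lay between -0.097 and 0.14 with 1 array left out, being negative without aged replicate 3, and was -0.095 without aged replicates 3 and 6. Neither negative value passed the test, and the cause was not tested. Of 684 values of 36 named genes under 19 settings, 645 kept their side of the threshold, 37 lost it, 2 gained it and 0 turned in sign. The calls of Kcne1, Kcns3, Kcnk2, Kcnh2, Kcna2 and Kcnj12 were kept under all 19, which leave out the stricter threshold and the single probe sets. At an adjusted p under 0.01 those of Kcna2 and Kcnj12 were lost. The 6 genes kept under all 19 had 1 or 2 probe sets each, all in the middle class. The median of probe sets and removal of the dimmest class therefore could not alter their values. Updated symbols gave the same members, so these settings were no real trial of the 6 calls.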
